A study of Homo sapiens with 9 samples.

Results

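The comparison of shTRIB3-2 with shCtrl asked which transcripts changed in HepG2 cells when TRIB3 was reduced by the stronger of 2 hairpins. HepG2 is an established human liver cancer line that still makes many plasma proteins of hepatocytes. The cells had been infected for 48 h with a lentivirus carrying a control hairpin (shCtrl) or a hairpin against TRIB3, and were then kept in puromycin for 48 h, so every group, the control included, had been infected and drug-selected. The labels name high-glucose DMEM with serum. The study's methods describe RNA of glutamine-deprived cells, in a sentence shared with its glutamine withdrawal experiment. Its discussion reports changed repair genes after TRIB3 depletion in cells that were not deprived of glutamine. The methods do not set this experiment apart, so the medium at harvest is not fully certain. The comparison used 6 of 9 libraries, 3 of shCtrl and 3 of shTRIB3-2, and the 3 libraries of the other hairpin, shTRIB3-1, were read beside them. Of 24204 gene symbols, 11265 were tested, namely those that reached an FPKM of 1 in 3 or more libraries. At the edge of that rule, the third highest library value was 1.001 FPKM for ALPK2, just inside, and 0.9995 for ZNF674, just outside. FPKM is the number of sequenced fragments of a gene scaled to the length of the gene and to the mapped fragments of the library. Library totals lay between 34206726 and 36311029 fragments. The labels do not say whether the 3 libraries of a group came from separate cultures, so p-values measure only the spread between these libraries, which may be technical. In bulk RNA, fewer cells of a kind and less RNA per cell cannot be told apart.

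TRIB3 belongs to the Tribbles family of pseudokinases, proteins that keep the fold of a kinase but act mainly by binding other proteins. It bridges the ubiquitin ligase COP1 to its substrates, binds the kinase AKT, and is induced through ATF4 when amino acids run short or the endoplasmic reticulum is stressed. Hepatocytes are largely quiescent in the liver, but HepG2 cells divide continuously and so carry, next to liver transcripts, the transcripts of DNA replication and mitosis. Many of those are switched on in waves, by E2F factors before S phase and by the MuvB complex with B-MYB and FOXM1 before mitosis, through short motifs near the start site.

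Both hairpins target the coding sequence of TRIB3 (chromosome 20, 362835 to 397559, plus strand, GRCh38), at different exons. The target of shTRIB3-2 is in exon 3 of 4 (chr20:391473-391493), over codons 160 to 166, and that of shTRIB3-1 is in exon 2 (chr20:388072-388092). The targets are shown because they are the designed difference between the hairpins, with capitals marking the 7 letters that pair with bases 2 to 8 of the guide strand.
shTRIB3-2: gccgtgctcttccGCCAGATg
shTRIB3-1: tggatgacaacttAGATACCg
The whole target of either hairpin was found in 0 other genes of the annotation.

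TRIB3 was at 67.9, 65.8 and 66.6 FPKM in shCtrl and at 20.6, 20.7 and 20.4 in shTRIB3-2, from 7372 to 7504 and from 2175 to 2224 fragments. The groups did not overlap, and the shTRIB3-2 libraries differed among themselves by far less than from the controls. This left 30.8% of the control level, a log2 fold change of -1.70 (SE 0.030, limma adjusted p = 5.39e-13). With shTRIB3-1, at 34.1, 32.7 and 34.0 FPKM, 50.3% was left.

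The response was wide in both directions. A gene was called when its limma adjusted p was under 0.05 and its level had moved by more than 1 log2 unit. By this rule 1389 of 11265 genes (12.3%) were called, while 75.9% passed the adjusted p alone. All 3 shTRIB3-2 libraries lay above all 3 controls in 36.1% of tested genes and below them in 41.3%. Of these, 683 (6.06%) were higher and 706 (6.27%) lower with shTRIB3-2. Calls of more than 2 log2 units numbered 172 higher and 209 lower, and calls of more than 3 numbered 36 higher and 75 lower, so the deepest changes were more often falls. The genes called higher had started low, with a median of 1.78 FPKM in shCtrl, and 260 of them (38.1%) were under 1 FPKM there. The genes called lower had a median of 7.08 FPKM in shCtrl, and 228 of them (32.3%) ended under 1 FPKM. Genes under 1 FPKM in one group could pass the filter through the libraries where they were high, so these levels are in part fixed by the filter and by the choice of risen or fallen genes. The middle of all tested genes stayed near 0, at a median log2 fold change of -0.03, with quartiles of -0.37 and 0.31.

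**Figure D1:**
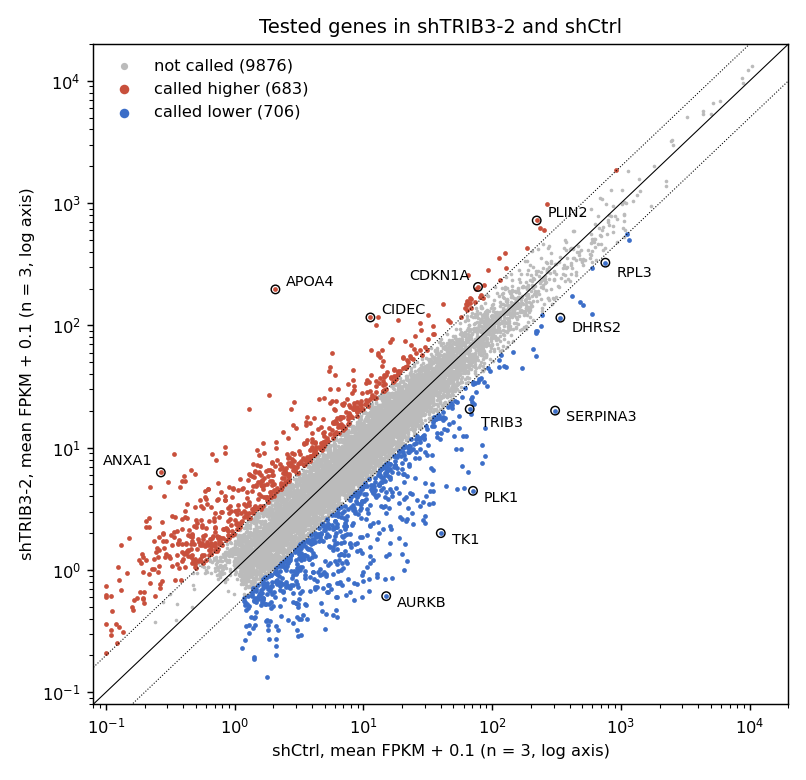
Mean FPKM + 0.1 of each tested gene in shCtrl (x) and shTRIB3-2 (y), both on log axes, with n = 3 libraries per group; dotted lines mark a factor of 2 and circles mark named genes. Red points (683) were called higher and blue points (706) lower. AURKB, TK1 and PLK1 lie far below the diagonal, and APOA4 and CIDEC far above it.

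Genes of cell division made up most of the deepest falls. Among the 15 largest falls of genes with at least 5 FPKM, 13 act in DNA replication, chromosome segregation or cytokinesis or on newly made chromatin, and the other 2, HAMP and SERPINA3, encode secreted liver proteins. PLK1, the kinase that drives entry into mitosis, was at 73.7, 68.7 and 70.2 FPKM in shCtrl and 4.76, 4.06 and 4.18 in shTRIB3-2, which left 6.12% (log2 fold change -4.0, SE 0.059, adjusted p = 1.36e-13). TK1, which salvages thymidine for DNA synthesis, went from 38.6, 40.4 and 40.3 FPKM to 1.86, 2.14 and 1.70 (-4.32, adjusted p = 2.35e-13). CDT1, which loads the replicative helicase at origins, went from 9.85, 9.50 and 9.75 FPKM to 0.516, 0.496 and 0.503 (-4.02, adjusted p = 5.39e-13). In each of these genes the lowest control library was at least 10 times the highest shTRIB3-2 library. AURKB, the kinase of the chromosomal passenger complex, had the largest fall of all, -4.67, from between 909 and 995 fragments to between 19 and 43. The counting strand is not given in the sources used here, and genes on the opposite strand overlap 12.8% of the exon bases of PLK1, 14% of KIFC1, 23.6% of MCM2 and 33.7% of NCAPG.

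The same held for whole lists of division genes. Of 43 genes of replication licensing and the fork, 43 passed an adjusted p under 0.05 in the lower direction, against 40.5% of all tested genes, and 37 were called lower, against the 6.27% above. Their median log2 fold change was -2.18. CDC45 and MCM5, parts of the helicase that opens the double helix, changed by -3.76 and -3.91, and MCM10 and MCM2 by -3.44 and -3.38. The 6 members that were not called lay between POLD2 at -0.31 and GMNN at -0.995 (both named after their values were seen).

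Mitotic genes fell further. The 35 mitotic kinases, cyclins and checkpoint genes had a median of -2.81, and 32 were called lower. CDC20, the activator of the anaphase-promoting complex, went from 62.8, 60.9 and 58.1 FPKM to 4.50, 4.58 and 4.65, and the checkpoint kinase BUB1 from 20.7, 20.9 and 21 to 1.64, 1.44 and 1.51. WEE1, which holds CDK1 inactive before mitosis, was the 1 member that rose (0.60, adjusted p = 1.82e-08), while BUB3 and CKS2 stayed short of a call (all 3 named after their values were seen). Of 37 kinesins and spindle and cytokinesis genes, 32 were called lower, with a median of -2.57. The motors KIF20A, KIF2C and KIFC1 changed by -4.38, -4.21 and -4.12. Of 33 kinetochore and condensation genes, 32 were called lower, with a median of -2.76. NDC80, which grips the microtubule end, changed by -4.03 and the condensin subunit NCAPG by -3.87.

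Genes that regulate the cycle, feed it or repair DNA fell less evenly. Of 29 cell cycle transcription factors and chromatin genes, 18 were called lower and the median was -1.56. UHRF1, which guides maintenance DNA methylation, changed by -3.90, MYBL2, a factor of the mitotic gene programme, by -3.05, and E2F8 by -3.43. Of 25 nucleotide supply genes, 8 were called lower, with a median of -0.68. The ribonucleotide reductase subunits RRM2 and RRM1 changed by -3.17 and -2.17. Of 36 tested genes of homologous recombination and the Fanconi pathway, 22 were called lower, with a median of -1.65. The strongest changes of the list were in RAD54L (-3.43), FANCI (-3.32) and EXO1 (-3.11). Another 4 members, RAD51B, RAD54B, FANCB and ATRIP, were under the FPKM filter.

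**Figure D2:**
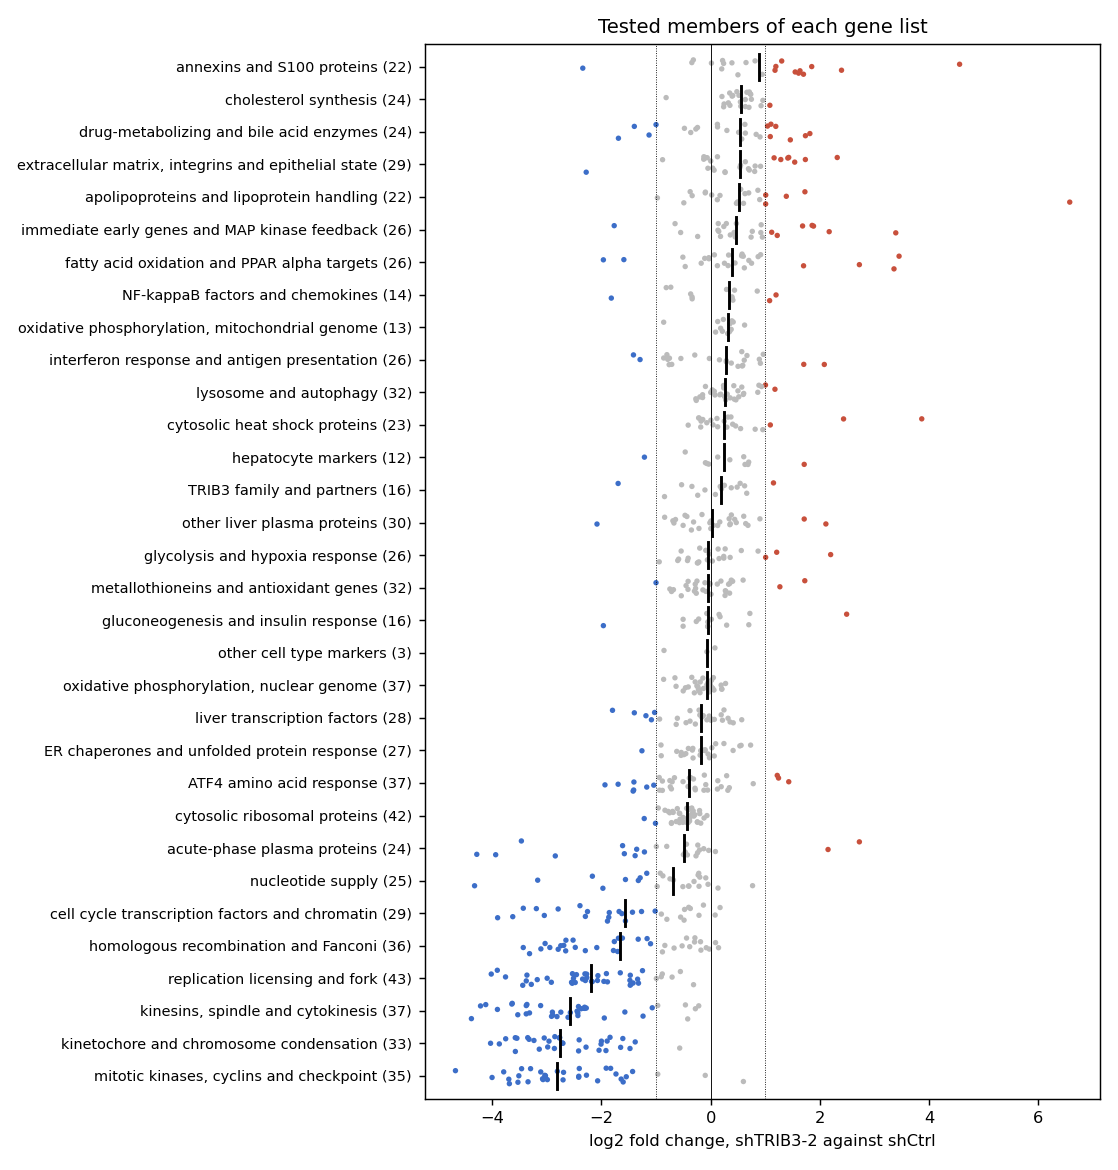
Log2 fold change of shTRIB3-2 against shCtrl (x) for each tested member of each gene list (y, number tested in brackets). The list that holds CDKN1A is left out. Black bars are medians, dotted lines mark a log2 fold change of -1 and 1, and red and blue points were called higher and lower. Lists of cell division genes and the homologous recombination and Fanconi list occupy the bottom rows, with medians of -2.81 to -1.56. Annexins and S100 proteins have the highest median, 0.88.

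The promoters of these genes were read for the motifs named above, over 250 bases before and 50 after the start site (RefSeq, GRCh38.p14). A promoter was found for 9088 of the 11265 tested genes. The motifs, searched on both strands, were the CHR (TTTGAA), the CCAAT box (CCAAT), an E2F site (TTTCCCGC or TTTGGCGC), the TATA box (TATAAA), the AP-1 site (TGACTCA) and the CRE (TGACGTCA). Below are the 120 bases before the start site of 6 of the largest falls and 2 of the largest rises, chosen because they hold the motifs whose shares differ most between groups, with capitals marking motif letters.
PLK1 (chr16:23678769-23678888, plus): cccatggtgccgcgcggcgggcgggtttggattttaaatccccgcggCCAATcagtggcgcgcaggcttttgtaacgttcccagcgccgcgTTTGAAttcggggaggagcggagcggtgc
NCAPG (chr4:17810859-17810978, plus): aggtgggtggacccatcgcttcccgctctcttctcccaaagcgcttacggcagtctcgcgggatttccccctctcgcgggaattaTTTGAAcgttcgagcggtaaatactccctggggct
BUB1B (chr15:40160949-40161068, plus): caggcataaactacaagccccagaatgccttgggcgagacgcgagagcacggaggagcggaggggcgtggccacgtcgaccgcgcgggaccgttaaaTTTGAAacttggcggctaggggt
KIF20A (chr5:138178992-138179111, plus): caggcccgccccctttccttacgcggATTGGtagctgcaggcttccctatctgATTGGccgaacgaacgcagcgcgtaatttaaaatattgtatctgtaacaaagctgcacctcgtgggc
CDT1 (chr16:88803669-88803788, plus): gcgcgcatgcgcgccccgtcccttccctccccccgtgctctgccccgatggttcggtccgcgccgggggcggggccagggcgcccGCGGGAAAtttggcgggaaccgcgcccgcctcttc
UHRF1 (chr19:4909381-4909500, plus): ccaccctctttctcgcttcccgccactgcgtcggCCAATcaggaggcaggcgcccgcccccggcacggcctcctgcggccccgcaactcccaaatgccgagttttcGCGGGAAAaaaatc
IL11 (chr19:55370464-55370583, minus): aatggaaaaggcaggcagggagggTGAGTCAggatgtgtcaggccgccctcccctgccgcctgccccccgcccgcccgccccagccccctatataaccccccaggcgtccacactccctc
PAEP (chr9:135561636-135561755, plus): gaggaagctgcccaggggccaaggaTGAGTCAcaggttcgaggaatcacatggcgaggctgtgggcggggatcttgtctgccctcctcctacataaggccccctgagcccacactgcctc

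The CHR lies within the last 40 bases before the start in PLK1, NCAPG and BUB1B, and the reverse E2F letters within the last 40 in CDT1 and UHRF1. KIF20A holds a pair of reversed CCAAT boxes. Across genes, the CHR was in 9.56% of promoters of all tested genes, 22.9% of those called lower and 9.84% of those called higher. The E2F site was in 3.93%, 9.91% and 1.18% of the same sets, and the CCAAT box in 37.0%, 49.9% and 24.0%.

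The division lists differed in which letters they held. The CHR was in 0 of 35 promoters of the replication licensing list but in 14 of 26 of the mitotic kinase list, 22 of 35 of the kinesin list and 17 of 28 of the kinetochore list. The E2F site was in 15 of 35 promoters of the licensing list and in 2 of 26, 3 of 35 and 2 of 28 of the other 3. Read from the motif, 14.6% of genes with a CHR and 15.4% of genes with an E2F site were called lower, against 5.21% and 5.73% of genes without. The AP-1 site went the other way, with 15.6% of genes that hold it called higher against 5.27% of the rest. A motif that could form a G-quadruplex (4 runs of at least 3 G with 1 to 7 bases between them) was in 33.7% of all tested promoters, 30.6% of those called lower and 40.6% of those called higher, and in 7 of 32 of the recombination list (21.9%). These shares are descriptions of letters and carry no test.

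**Figure D3:**
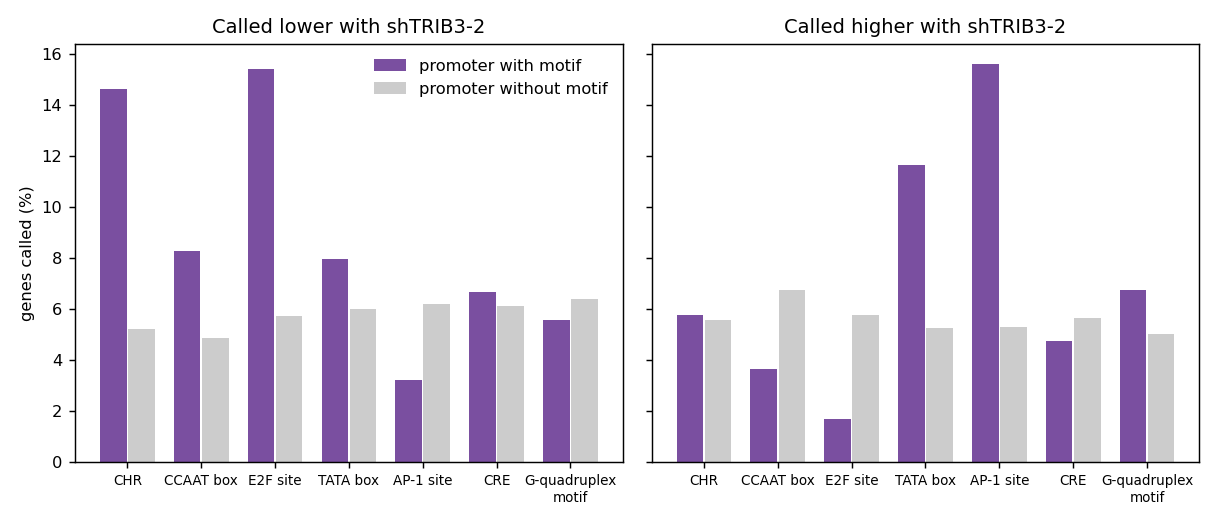
Percentage of genes called lower (left) and called higher (right) with shTRIB3-2, among tested genes whose promoter holds each motif (purple) or does not (gray). Genes with a CHR or an E2F site were called lower in 14.6% and 15.4% of cases, and genes with an AP-1 site were called higher in 15.6%.

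Genes of growth arrest moved both ways. CDKN1A, which encodes the cyclin-dependent kinase inhibitor p21, went from 78.9, 76.9 and 76.7 FPKM to 205, 212 and 202 (1.41, SE 0.030, limma adjusted p = 2.06e-12). In shTRIB3-1 it was at 145, 147 and 151 FPKM, so the 3 groups did not overlap. The stress sensor GADD45A and the kinase PLK3 rose by 1.18 and 1.44, while ZMAT3, which encodes an RNA-binding zinc finger protein, fell by 1.13 on the log2 scale. The list that holds CDKN1A, GADD45A and PLK3 has 31 tested genes, of which 3 were called higher and 2 lower. At an adjusted p under 0.05, 12 were higher and 11 lower, and the median was -0.03. Of all tested genes, 35.4% were higher and 40.5% lower by the same p rule, so the list lay close to the general shares.

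Ribosomal protein genes fell together by a small amount. Of 42 listed genes, 40 passed an adjusted p under 0.05 in the lower direction and 0 in the higher, with a median of -0.44, and the median stayed between -0.46 and -0.39 under every rescaling tried. RPL3 went from 729, 767 and 775 FPKM to 326, 330 and 321 (-1.22, adjusted p = 1.94e-11), and RPS6, the ribosomal protein phosphorylated by S6 kinase, from 577, 622 and 594 to 288, 312 and 289. These 2 were the only listed members called. The summed FPKM of all 81 ribosomal protein genes, a set widened after the list was read, was between 31799 and 34299 in shCtrl, between 29665 and 30923 in shTRIB3-1 and between 23275 and 24950 in shTRIB3-2. In a direct comparison of the hairpins, 40 of the 42 listed genes were lower with shTRIB3-2 at an adjusted p under 0.05, against 20.7% of all tested genes.

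Liver plasma proteins split. Of 24 tested acute-phase genes, 9 were called lower and 2 higher, with a median of -0.48. With shTRIB3-1 the list fell further, to a median of -0.92. Compared directly, 13 of the 24 were higher and 3 lower with shTRIB3-2 at an adjusted p under 0.05, against 2832 and 2327 of 11265 tested genes. SERPINA3, an inhibitor of serine proteases, went from 272, 321 and 332 FPKM to 21.6, 19.3 and 19.1, and shares 31.7% of its exon bases with another gene. HAMP, the iron hormone hepcidin, changed by -4.28, and the haptoglobin gene HP went from 74.4, 85.9 and 87.5 FPKM to 7.99, 6.39 and 7.82. The fibrinogen chain FGG went from 1064, 1194 and 1221 FPKM to 509, 504 and 485 (-1.21). VNN1, a pantetheinase that is also a PPAR alpha target, rose from 6.28, 6.12 and 5.31 FPKM to 38.6, 40.0 and 39.8. The 30 other plasma proteins had a median of 0.03, with 14 higher and 12 lower at an adjusted p under 0.05. The shares of all tested genes were 35.4% and 40.5%. Of the 30, 2 were called higher and 1 lower. TTR, the thyroxine carrier transthyretin, rose from 26.2, 26.6 and 30.9 FPKM to 91.5, 92.9 and 90.1 (1.71), and SERPING1, the C1 inhibitor, changed by -2.08.

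The liver identity of the cells was still visible. All 12 hepatocyte markers were tested, 7 were higher and 3 lower at an adjusted p under 0.05, and their summed FPKM was between 13389 and 14436 in shCtrl and between 17244 and 18341 in shTRIB3-2. By the same p rule, 35.4% of all tested genes were higher and 40.5% lower. The fetal marker AFP rose from 181, 201 and 204 FPKM to 317, 313 and 309, and APOA1 from 1009, 1159 and 1207 to 1843, 1867 and 1746. Of the 12, TTR was called higher (1.71) and FGG lower (-1.21). The median of the list was 0.24, and 0.11 under quantile normalization. Of 16 markers of other cell types, 3 passed the filter, and of these only lysozyme (LYZ) changed, from 1020, 1077 and 1144 FPKM to 598, 616 and 577. Of the others, PTPRC, CD3E, CDH5, COL3A1, DCN and NEFL had at most 2 fragments in any of the 6 libraries, and COL1A1 and GFAP at most 7. Low numbers were counted for CD14 (56 to 75 fragments in shCtrl, 14 to 24 in shTRIB3-2), PECAM1 (43 to 52 and 25 to 36), VWF (28 to 29 and 48 to 56), PDGFRB (29 to 38 and 12 to 26) and DES (2 to 14 and 9 to 13). Of 28 liver transcription factors, with a median of -0.18, 5 were called lower and 0 higher, among them the bile acid receptor NR1H4 (-1.40), CEBPD (-1.80) and ONECUT1 (-1.03).

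Some genes of lipid handling rose and others fell. CIDEC, which fuses lipid droplets, went from 11.6, 11.3 and 10.8 FPKM to 118, 119 and 111 (3.36, SE 0.036, adjusted p = 1.07e-14), and PLIN2, which coats them, from 228, 222 and 215 to 707, 741 and 715 (1.70). The 26 tested genes of fatty acid oxidation and PPAR alpha targets had a median of 0.39, with 17 higher and 6 lower at an adjusted p under 0.05. The shares of all tested genes were 35.4% and 40.5%. Of the 26, 4 were called higher and 2 lower. PPARGC1A, a coactivator of oxidative genes, was one of the 2 that fell (-1.96).

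Lipoprotein and sterol genes were more often higher than lower. Of 22 tested apolipoprotein and lipoprotein genes, 15 were higher and 5 lower at an adjusted p under 0.05, and 5 were called higher and 0 lower, with a median of 0.52. APOA4, a lipoprotein component made mainly by the intestine, had the largest rise of all tested genes, from 1.99, 1.72 and 2.20 FPKM to 205, 197 and 188, and 43.2% of its exon bases lie opposite another gene. MTTP, which loads lipid onto apolipoprotein B, rose by 1.39. Of 24 cholesterol synthesis genes, 23 were higher at an adjusted p under 0.05, against 35.4% of all tested genes, with a median of 0.55, but SC5D alone passed the fold threshold (1.08).

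**Figure D4:**
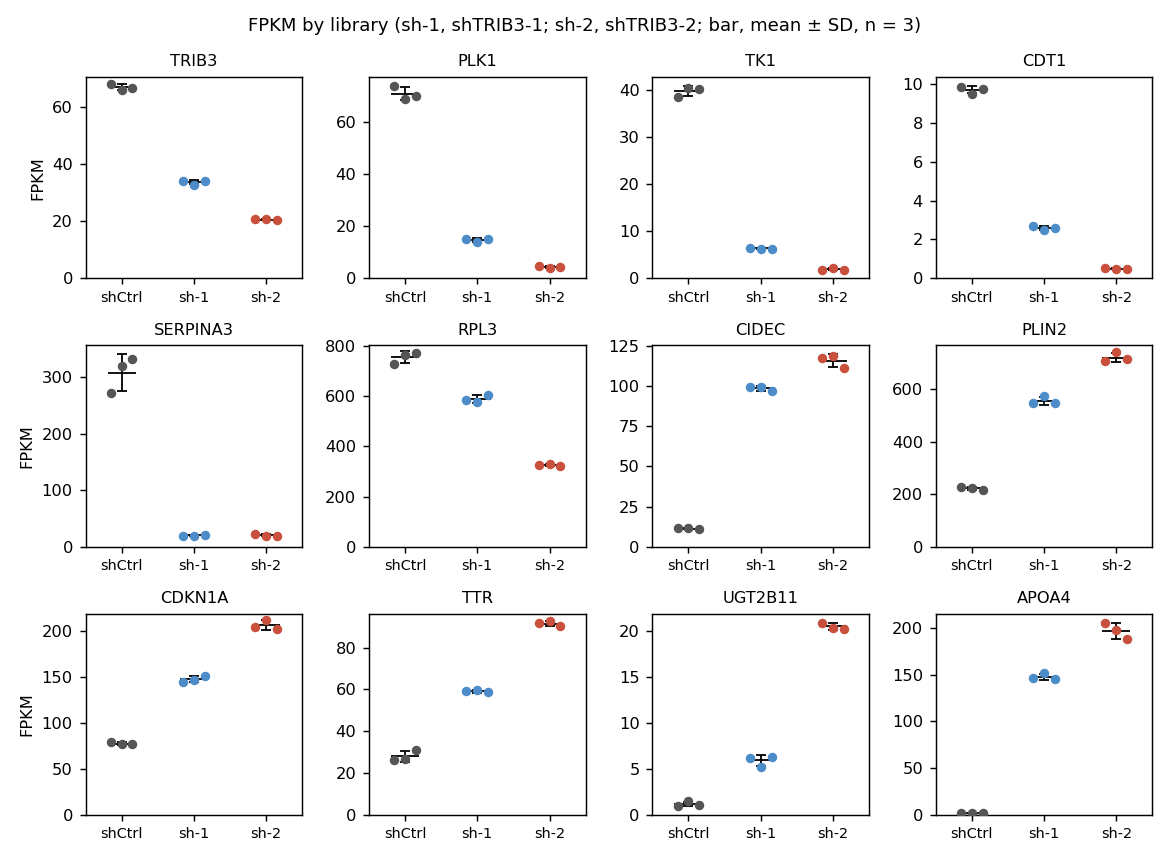
FPKM (y, linear axis from 0) of 12 genes in each of the 9 libraries by group (x), with the mean and SD of 3 libraries as black bars. For TRIB3, PLK1, TK1, CDT1 and RPL3 the shTRIB3-2 libraries are lowest, and for CIDEC, PLIN2, CDKN1A, TTR, UGT2B11 and APOA4 they are highest. For SERPINA3 the libraries of both hairpins overlap, from 19.1 to 21.6 FPKM.

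Genes of cell signaling and cell shape formed a further group of rises. Of 26 tested immediate early and MAP kinase feedback genes, 7 were called higher and 1 lower, with a median of 0.46. DUSP5 and DUSP1, phosphatases that switch MAP kinases off, rose from 6.23, 5.64 and 5.06 FPKM to 57.9, 62.4 and 59.4 and from 15.8, 15.5 and 16.9 to 70.5, 71.6 and 75.8. The transcription factor KLF6 rose by 1.86, while MYCN changed by -1.77. Of 22 tested annexin and S100 genes, 10 were called higher and ANXA13 lower. ANXA1, a membrane-binding protein that inhibits inflammation, rose by 4.56, from between 9 and 12 fragments to between 350 and 362. With shTRIB3-1 ANXA1 rose further, by 7.88, to between 3474 and 3774 fragments. S100A3 rose by 2.40 with shTRIB3-2. Of 29 tested matrix, integrin and epithelial genes, 7 were called higher and 1 lower, with a median of 0.54. LAMB3, a chain of laminin, rose by 2.32, and SPP1, the secreted phosphoprotein osteopontin, fell from 608, 583 and 597 FPKM to 125, 123 and 120 (-2.28).

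Several secreted or receptor genes that are low in control cells were among the 15 largest rises. The cytokine IL11 rose by 3.79, from between 20 and 31 fragments to between 395 and 495, the Wnt ligand WNT11 by 3.64, the endothelial receptor TIE1 by 3.88, from between 47 and 64 fragments to between 1007 and 1034, and the serotonin receptor HTR1D by 3.62. PAEP, which encodes glycodelin, rose by 4.17 from between 4 and 12 fragments. CYP17A1, an enzyme of steroid synthesis, rose by 3.68, and 41.9% of its exon bases lie opposite another gene. With shTRIB3-1, TIE1 and CYP17A1 rose more, by 4.33 and 4.47. IL11, WNT11, HTR1D and PAEP rose there by 3.15, 3.34, 3.59 and 4.15.

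Enzymes that modify drugs and bile acids moved both ways, with 7 called higher and 4 lower of 24 tested and a median of 0.54. UGT2B11, which is outside that list, went from 0.992, 1.46 and 1.10 FPKM to 20.9, 20.4 and 20.3 (4.02, adjusted p = 2.22e-11). UGT2B4 and UGT1A1, which add glucuronic acid to their substrates, rose by 1.82 and 1.74. The UGT2B genes resemble each other and the UGT1A genes share exons, so the counting may have split reads among them. GSTA1, a glutathione transferase, changed by -1.69.

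Stress genes did not share a direction. Of 37 tested genes of the ATF4 amino acid response, 25 were lower and 9 higher at an adjusted p under 0.05, with a median of -0.39. The shares of all tested genes were 40.5% lower and 35.4% higher. TRIB3, the target of the hairpins, is itself among the 25. The members ASNS, CHAC1, ALDH1L2, JDP2 and FGF21 were under the FPKM filter. The serine synthesis enzyme PSAT1 went from 168, 173 and 170 FPKM to 45.7, 42.8 and 45.1 (-1.94), the glycine transporter SLC6A9 changed by -1.42 and the stress protein NUPR1 by -1.41. PPP1R15A, which restores translation after stress, rose by 1.43. Among 27 genes of endoplasmic reticulum chaperones and the unfolded protein response, with a median of -0.18, PDIA4 was the 1 called, at -1.26, and XBP1 changed by -0.91. Of 23 cytosolic heat shock genes, with a median of 0.25, HSPA6, HSPB8 and HSPA1A were called higher, by 3.87, 2.43 and 1.09. HSPA6 and HSPA1A have near-identical relatives, and HSPA1B shares 36.6% of its exon bases with another gene. Compared directly, 21 of these 23 genes were lower with shTRIB3-2 than with shTRIB3-1 at an adjusted p under 0.05, against the 20.7% of all tested genes given above.

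The remaining lists had medians between -0.07 and 0.34. Glycolysis and hypoxia genes had a median of -0.04 over 26 genes, with PFKP (2.20) and ENO2 (1.21) among 3 called higher, and gluconeogenesis genes -0.05 over 16, with PCK1, the first committed enzyme of glucose synthesis, called higher (2.49). Medians were 0.29 for 26 interferon genes, 0.34 for 14 NF-kappaB factors and chemokines, 0.26 for 32 lysosome and autophagy genes and -0.05 for 32 metallothionein and antioxidant genes. Oxidative phosphorylation genes of the nucleus had a median of -0.07 over 37, with 0 called, and those of the mitochondrial genome 0.31 over 13, with 0 called. Quantile normalization took the mitochondrial median to 0.00, and without the FPKM filter the NF-kappaB median was -0.03. Mitochondrial genes took 5.57% ± 0.462 of the fragments in shCtrl and 6.78% ± 0.388 in shTRIB3-2 (SD, n = 3), and their part in the other values was not tested.

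Among the relatives and partners of TRIB3, 16 of 18 were tested and 10 were higher and 6 lower at an adjusted p under 0.05. The shares of all tested genes were 35.4% higher and 40.5% lower. TRIB1, a Tribbles relative that also recruits COP1, was the only one besides TRIB3 to be called, from 18.2, 16.6 and 16.8 FPKM to 37.7, 37.9 and 39.1 (1.15, adjusted p = 8.89e-11). The ubiquitin ligase SMURF1 rose by 0.66, MAP2K4 by 0.62 and MAP2K1 by 0.54, and MAP3K11 changed by -0.53. COP1 itself changed by 0.17 and the helicase DDX5, which the study followed as a partner of TRIB3, by 0.25. ACACA, a COP1 substrate bridged by TRIB3 in fat, changed by 0.09 with an adjusted p of 0.0432, which rose to between 0.0583 and 0.127 without shCtrl replicate 2 or 3, shTRIB3-1 replicate 3 or any 1 of the shTRIB3-2 libraries, and to 0.185 on the TPM scale.

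Genes called with shTRIB3-2 and not with shTRIB3-1 numbered 367 (3.26% of tested genes), 196 higher (1.74%) and 171 lower (1.52%). They were 26.4% of the shTRIB3-2 calls. A call missed with one hairpin does not show a difference, and most of these genes had moved the same way with shTRIB3-1. Their fold change with shTRIB3-1 had the same sign in 364 of 367, 346 of them at an adjusted p under 0.05, and was at least 0.5 log2 units in the same direction in 323. TRIB3 is itself one of the 367. Both comparisons used the same controls, so the sign agreement carries no test. Compared directly, 299 of the 367 differed from shTRIB3-1 at an adjusted p under 0.05, and 68 did not. Of all 11265 tested genes, 2832 were higher and 2327 lower with shTRIB3-2 than with shTRIB3-1 by the same rule. The 367 were chosen from the same libraries for a call with shTRIB3-2 alone, so their share is in part fixed by that choice.

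A direct difference of more than 1 log2 unit left 23 genes, 8 higher and 15 lower. Quantile normalization gave 24 higher and 12 lower, so the balance of directions depends on scaling. Over all tested genes, 2.08% were called in shTRIB3-2 against shTRIB3-1, 32 (0.284%) higher and 202 (1.79%) lower. CENPJ, near the limit and inside it, had a difference of -1.07, and just outside it were NEURL3, E2F1 and IL15RA, with 0.96, -0.98 and 0.98.

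**Figure D5:**
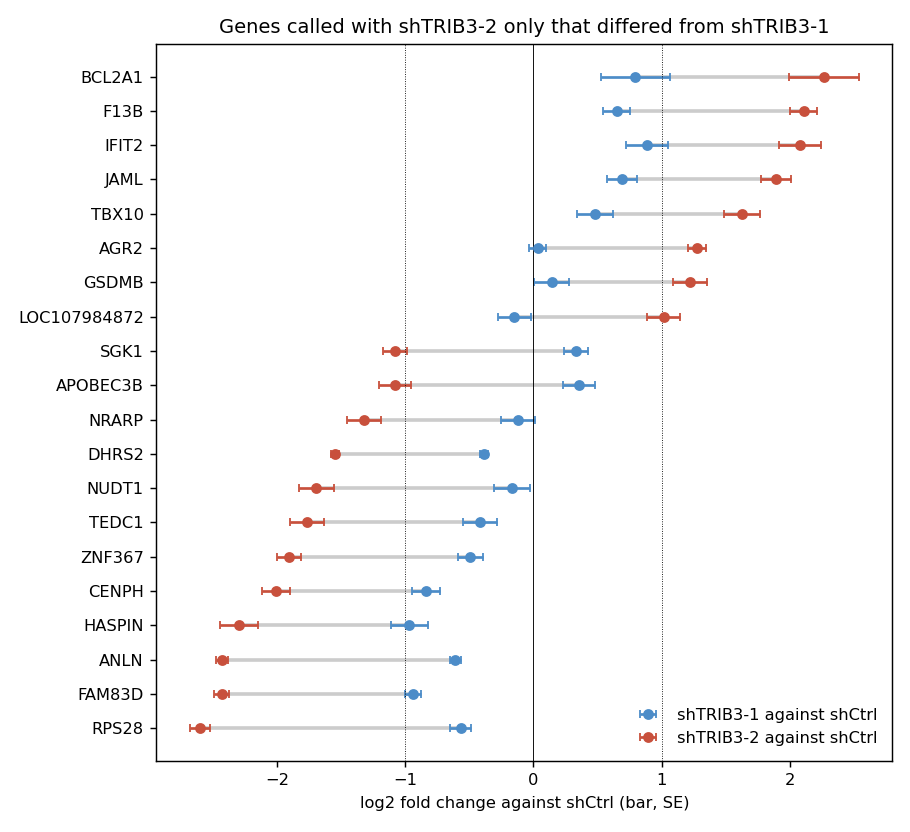
Log2 fold change against shCtrl (x, bars are SE) of genes called with shTRIB3-2 only that differed from shTRIB3-1 by more than 1 log2 unit, the 8 higher and the 12 lower with the largest difference between the hairpins, for shTRIB3-1 (blue) and shTRIB3-2 (red). RPS28 has the lowest shTRIB3-2 value, -2.60, and AGR2 and GSDMB are near 0 with shTRIB3-1.

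Among the lower genes, RPS28, a protein of the small ribosomal subunit, stood out by size. It was at 79.7, 93.7 and 89.8 FPKM in shCtrl, 55.3, 61.5 and 60.4 in shTRIB3-1 and 13.3, 16.4 and 13.5 in shTRIB3-2. The 3 groups did not overlap, and the hairpins differed by -2.03 (SE 0.079, adjusted p = 4.68e-09). Ribosomal protein genes have many processed copies in the genome, and an antisense gene overlaps 20.6% of the exon bases of RPS28. DHRS2, a short-chain dehydrogenase, was the most abundant of the 23, at 325, 344 and 346 FPKM in shCtrl, 252, 265 and 260 in shTRIB3-1 and 116, 116 and 114 in shTRIB3-2 (difference between the hairpins -1.16, adjusted p = 3.07e-10).

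Of the other lower genes, several serve cell division. ANLN, which scaffolds the contractile ring, was at 22.4, 22.9 and 23.4 FPKM in shCtrl, 14.6, 15.3 and 15 in shTRIB3-1 and 4.30, 3.95 and 4.26 in shTRIB3-2. FAM83D, which places a kinase on the spindle, HASPIN, a mitotic histone kinase, the kinetochore gene CENPH and TEDC1, a centriole protein, differed between the hairpins by -1.49, -1.33, -1.17 and -1.35. NUDT1, which clears oxidized nucleotides from the DNA precursor pool, was at 3.54, 4.08 and 4.61 FPKM in shCtrl, 4.26, 3.32 and 3.27 in shTRIB3-1 and 1.04, 1.45 and 1.10 in shTRIB3-2. In NUDT1 and in NRARP, a Notch feedback gene that differed by -1.20, the libraries of shCtrl and shTRIB3-1 overlapped. APOBEC3B, a DNA cytidine deaminase, and SGK1, a kinase related to AKT, lay below shCtrl with shTRIB3-2 (-1.08 for each) and above it with shTRIB3-1 (0.35 and 0.33).

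Among the 8 higher genes, AGR2, a disulfide isomerase of secretory epithelia, was the most abundant. It was at 8.68, 9.69 and 9.59 FPKM in shCtrl, 8.80, 9.27 and 10.6 in shTRIB3-1 and 22.1, 24.0 and 22 in shTRIB3-2 (difference between the hairpins 1.24, adjusted p = 7.54e-08). F13B, a subunit of clotting factor XIII, was at 1.33, 1.11 and 1.07 FPKM in shCtrl, 1.78, 1.75 and 2.15 in shTRIB3-1 and 5.61, 4.99 and 5.51 in shTRIB3-2. The others were low. BCL2A1, a survival protein of the BCL2 family, had between 51 and 65 fragments in shTRIB3-2, the interferon-induced IFIT2 between 227 and 296, and JAML, TBX10 and GSDMB were between 3.39 and 6.19 FPKM. The uncharacterized LOC107984872 reached 1.87 FPKM at most.

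The letters that pair with the shTRIB3-2 seed, GCCAGAT, were looked for in the 3′ UTRs of tested genes, because a guide strand can also lower transcripts through its seed. They were in 9.20% of 10387 tested genes with an annotated 3′ UTR, in 7.01% of those called lower and in 7.98% of those lower with shTRIB3-2 only. The shares were not adjusted for length. The median 3′ UTR was 930 bases in genes called lower and 1295 in all tested genes, and 3306 in genes with the letters against 1164 in genes without. The median log2 fold change was -0.04 with the letters and -0.03 without. Sites of other lengths or in coding sequence were not searched.

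Promoters of the genes called with shTRIB3-2 only were read the same way. The CHR was in 27 of 135 promoters of the lower genes and the E2F site in 12 of 135, shares of 20% and 8.89% beside 22.9% and 9.91% of all genes called lower. The AP-1 site was in 4 of 145 promoters of the higher genes (2.76%), near the 3.10% of all tested promoters. Of all genes called higher, 8.66% held it.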

How the data were processed

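RNA of 9 HepG2 libraries was sequenced in pairs. The authors aligned the reads to GRCh38 with STAR, and the submitters' processing notes name HTSeq and R 3.2.0. The deposited values are FPKM, 1 line per gene symbol and 1 column per library, with no pooling, and the annotation release, strand setting and filters are not given in the sources used here. The authors tested with DESeq2, and none of their test results were used. The labels and the methods name different library kits, only 1 of them strand-specific. There are no labels of batch or date.

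All 172769 values above 0 lay within 0.02 of a whole number of fragments for 1 length per gene and 1 total per library, which gave the fragment numbers and totals. FPKM + 0.1 was put on the log2 scale, so fold changes of low genes are understated. Genes with at least 1 FPKM in at least 3 of 9 libraries were fitted with limma 3.58.1 (R 4.3.3), 3 group means over 9 libraries, empirical Bayes with a mean-variance trend, two-sided, with Benjamini-Hochberg adjustment over 11265 genes. The fit was tested on simulated data.

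The text names TRIB3, the 15 called genes with the largest rise and the 15 with the largest fall at 5 FPKM or more in either group, the 5 genes that gained and the 5 that lost most FPKM, up to 12 genes in each direction for shTRIB3-2 only, the 5 strongest members of each list, TRIB3 partners, genes the study followed and genes with opposite calls. The genes, lists and motifs were chosen with earlier results of these data known. Lists were described by counts and medians, without set tests. Hairpin targets came from the study's primer list and were matched to GRCh38 and GENCODE, and promoters came from RefSeq (GRCh38.p14). The alternatives were other pseudocounts (0.01 and 1), filters, scalings (TPM, median centring, quantile normalization), limma with voom on the recovered fragments, a fit on 6 libraries, a replicate block and leaving out each library. Some results are not reported here.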

Additional observations from a re-analysis of the deposited data

Results flagged for a closer look

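CSRP2, which encodes a LIM-domain protein of the actin cytoskeleton, was singled out because the hairpins moved it in opposite directions. It was at 3.57, 2.76 and 2.77 FPKM in shCtrl, 6.11, 7.29 and 6.52 in shTRIB3-1 and 1.35, 1.23 and 1.16 in shTRIB3-2. The 3 groups did not overlap. Its log2 fold change against shCtrl was -1.21 with shTRIB3-2 and 1.11 with shTRIB3-1, and the hairpins differed by -2.32 in limma (SE 0.107). The values rest on 37 to 42 fragments per library in shTRIB3-2, and CSRP2 was the 1 gene called in both directions.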

How the results depend on the processing

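The log2 fold change of TRIB3 lay between -1.72 and -1.64 under every alternative run. Filters and pseudocounts moved the counts most. An FPKM of at least 5 gave 801 calls (382 higher, 419 lower), 207 with shTRIB3-2 only and 9 that also differed from shTRIB3-1 (2 higher, 7 lower). A pseudocount of 1 gave 888 calls (411 higher, 477 lower) and 7 differing genes (2 higher, 5 lower). Without a filter, 1941 genes were called, 579 with shTRIB3-2 only and 43 differing (24 higher, 19 lower). Quantile normalization gave 36 differing genes (24 higher, 12 lower). The voom fit called 1469 genes and median centring 1398 (754 higher, 644 lower). The cause of these differences was not tested, beyond the number of genes that each filter leaves.

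Leaving out 1 library at a time gave 1385 to 1426 calls (665 to 706 higher, 679 to 748 lower), 361 to 388 with shTRIB3-2 only and 21 to 28 differing genes (7 to 11 higher, 14 to 19 lower). The replicate block left 1389 calls, 367, 23 and a TRIB3 value of -1.70. Correlations of same-numbered shCtrl and shTRIB3-2 libraries were -0.074, 0.004 and -0.011. Those of shCtrl and shTRIB3-1 were 0.039, 0.035 and 0.023, and those of the 2 hairpins 0.093, 0.060 and 0.028. Different-numbered libraries of the 2 hairpins lay between -0.076 and 0.014. Whether the numbers pair the samples was not tested beyond the replicate block. Of the values of named genes, 4230 kept direction and side of the threshold and 27 lost the threshold, among them COX1, COX3, APOA2, FTL and ALB under quantile normalization. List medians moved by less than the spread between libraries in 549 values and by more in 78. A pseudocount of 1 took the median of mitotic kinases, cyclins and checkpoint genes to -2.13, of replication licensing to -1.63 and of homologous recombination to -1.08, an FPKM of at least 5 took that of acute-phase genes to -0.90, and without a filter that of matrix genes was 0.09. Glycolysis and metallothionein medians, both near 0, changed sign under median centring.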

Other observations

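By mass, the largest gains were in transcripts that were already abundant. The mitochondrial gene COX1 gained most FPKM, from 11089, 10544 and 9607 to 13504, 13276 and 12906, and APOA2, a protein of HDL, went from 3160, 3267 and 3330 to 4986, 5420 and 4700. ALB, which encodes serum albumin, went from 4930, 5397 and 5314 to 6636, 6715 and 6584. These gains were not called, and quantile normalization took those of COX1 and APOA2 to 0.00 and that of ALB to 0.11.

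The largest losses included the ferritin heavy chain gene FTH1, the translation factor gene EEF1A1 and the selenoprotein gene GPX2. FTH1 was at 2345, 2184 and 2217 FPKM in shCtrl, 2193, 2288 and 2226 in shTRIB3-1 and 1348, 1425 and 1332 in shTRIB3-2, so that shTRIB3-2 alone lay apart (log2 fold change -0.72). The light chain gene FTL changed by 0.26. A gene on the opposite strand overlaps 63.2% of the exon bases of FTH1. EEF1A1 went from 2210, 2263 and 2271 FPKM to 1510, 1445 and 1556.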
